A study of Mus musculus with 4 samples.

Results

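The transcription factor Deaf1 was mapped by chromatin immunoprecipitation and sequencing (ChIP-seq) in C2C12, an established line of mouse myoblasts, the precursors of muscle fibres. The regions described here are the broad ones. Of the 1511 reproducible Deaf1 regions on chromosomes 1 to 19 and X, 358 (23.7%) were at least 300 bp wide and make up the broad set. The other 1153 were narrower. The members were chosen by their measured width in the combined list of both ChIP libraries, so width itself is no finding, and enrichment at the same regions is given below as a description with no test. A peak-rich block on chromosome 10 was left out.

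The study holds 1 group of 2 Deaf1 ChIP libraries (replicates 1 and 2) and 2 input libraries. The cells were grown in DMEM with 10% fetal bovine serum, with no treatment or genotype named. Chromatin was fixed with formaldehyde and sonicated, per the labels, although the protocol also carries the word native, a term for unfixed chromatin. The antibody was anti-Deaf1 from Bethyl Laboratories. Nothing in the labels says that the replicates came from separate cultures, so their spread may be technical. The inputs enter only through the background in each peak list, and with 1 group no change in occupancy was measured.

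Deaf1 belongs to the family of SAND-domain proteins. The SAND domain binds DNA at elements built on the bases TTCG, usually present in several copies, and a separate MYND zinc finger contacts partner proteins. A ChIP peak marks DNA recovered with the antibody, either because the factor touches it or because it lies close by in the fixed chromatin. Most promoters of widely expressed genes lie in CpG-rich DNA, and many carry CCGGAAG, the core of sites bound by ETS-family factors.

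Promoters under broad regions differ in the short elements they hold, and examples of each kind follow. The sequences below are RefSeq promoter windows on GRCm38.p6, running from 250 bases before to 50 bases after an annotated start and written 5′ to 3′ on the strand of the gene. The first set comes from members of 891 to 4900 bp and is shown because each window holds TTCG copies exactly 10 bp apart on the same strand. Capitals mark every TTCG and its reverse complement CGAA. The Deaf1 window is chr7:141327676-141327975 on the minus strand, at an internal start of the factor's own gene. The Commd3 window is chr2:18672185-18672484 (plus strand), the Eif4g3 window chr4:137993206-137993505 (plus), the Mboat7 window chr7:3692937-3693236 (minus) and the Rpl28 window chr7:4792715-4793014 (plus).
Deaf1: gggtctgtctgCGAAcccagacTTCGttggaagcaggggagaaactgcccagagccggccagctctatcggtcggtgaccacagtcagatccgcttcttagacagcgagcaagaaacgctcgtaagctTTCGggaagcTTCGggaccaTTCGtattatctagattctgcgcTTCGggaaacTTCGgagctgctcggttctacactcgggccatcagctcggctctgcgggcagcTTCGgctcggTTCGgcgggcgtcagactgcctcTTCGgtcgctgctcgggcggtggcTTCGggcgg
Commd3: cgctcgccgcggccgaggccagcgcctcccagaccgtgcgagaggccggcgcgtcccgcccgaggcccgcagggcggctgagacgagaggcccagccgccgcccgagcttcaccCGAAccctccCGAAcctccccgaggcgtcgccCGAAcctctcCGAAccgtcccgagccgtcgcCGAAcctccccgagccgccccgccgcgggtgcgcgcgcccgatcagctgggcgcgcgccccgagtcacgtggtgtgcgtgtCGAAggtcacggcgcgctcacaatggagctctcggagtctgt
Eif4g3: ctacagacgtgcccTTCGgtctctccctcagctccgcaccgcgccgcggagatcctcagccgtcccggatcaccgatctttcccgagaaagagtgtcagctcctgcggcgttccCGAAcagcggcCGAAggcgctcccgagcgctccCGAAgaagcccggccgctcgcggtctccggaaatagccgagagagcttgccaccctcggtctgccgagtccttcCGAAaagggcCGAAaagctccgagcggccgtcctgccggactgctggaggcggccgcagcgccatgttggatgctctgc
Mboat7: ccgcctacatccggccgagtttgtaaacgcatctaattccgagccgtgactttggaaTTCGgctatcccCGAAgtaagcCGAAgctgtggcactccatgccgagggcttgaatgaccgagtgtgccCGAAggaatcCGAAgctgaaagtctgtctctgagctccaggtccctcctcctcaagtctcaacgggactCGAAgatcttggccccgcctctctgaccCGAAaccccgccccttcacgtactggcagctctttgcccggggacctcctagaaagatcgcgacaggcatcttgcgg
Rpl28: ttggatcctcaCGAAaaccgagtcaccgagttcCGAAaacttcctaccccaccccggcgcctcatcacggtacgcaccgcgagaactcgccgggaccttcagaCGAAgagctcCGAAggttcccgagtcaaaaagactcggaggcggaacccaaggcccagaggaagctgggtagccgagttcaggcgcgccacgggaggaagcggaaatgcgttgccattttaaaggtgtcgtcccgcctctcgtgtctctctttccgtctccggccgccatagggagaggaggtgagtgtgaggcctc

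The second set comes from members of 324 to 528 bp and is shown because each window holds the ETS-type core. Capitals mark CCGGAAG and its reverse complement CTTCCGG. The Rpl37 window is chr15:5116363-5116662, the Eif3l window chr15:79074973-79075272 and the Vps52 window chr17:33955632-33955931, all on the plus strand.
Rpl37: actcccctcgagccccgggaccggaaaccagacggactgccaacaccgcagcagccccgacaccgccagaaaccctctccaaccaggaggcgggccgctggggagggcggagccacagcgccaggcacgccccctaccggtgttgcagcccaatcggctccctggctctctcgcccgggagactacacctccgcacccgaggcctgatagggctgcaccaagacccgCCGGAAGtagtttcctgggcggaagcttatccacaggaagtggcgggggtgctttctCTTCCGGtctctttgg
Eif3l: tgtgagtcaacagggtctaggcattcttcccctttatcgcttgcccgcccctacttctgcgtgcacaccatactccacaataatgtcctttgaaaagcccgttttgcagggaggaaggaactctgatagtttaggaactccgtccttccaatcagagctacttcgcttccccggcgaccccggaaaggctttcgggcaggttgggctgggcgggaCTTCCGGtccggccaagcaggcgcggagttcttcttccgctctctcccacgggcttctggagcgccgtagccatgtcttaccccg
Vps52: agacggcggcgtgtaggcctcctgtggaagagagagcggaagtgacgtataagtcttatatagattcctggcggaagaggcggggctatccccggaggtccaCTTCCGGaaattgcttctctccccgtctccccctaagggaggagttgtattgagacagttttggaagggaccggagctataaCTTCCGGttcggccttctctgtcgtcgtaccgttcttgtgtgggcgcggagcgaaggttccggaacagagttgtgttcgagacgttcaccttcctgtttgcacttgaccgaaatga

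The Deaf1 window held 11 copies of TTCG on either strand, the highest number among 21044 windows of protein-coding genes. It also held 4 pairs at the 10-bp spacing. The replicate 2 summit of its region lay outside this window, 353 bp from its centre, and inside the overlapping Tmem80 window, which held 7 copies and 1 pair. The Mboat7 window had 7 copies and 2 such pairs, the Commd3 window 6 copies and 2 pairs, the Eif4g3 window 6 copies and 1 pair, and the Rpl28 window 4 copies and 1 pair. None of these 5 windows had CCGGAAG. The windows were picked for these elements, so they illustrate and do not compare. The Rpl37 window had 2 copies of CCGGAAG and no TTCG. The Vps52 window had 2 copies of CCGGAAG with 4 of TTCG, and the Eif3l window 1 with 2.

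Across the set, 206 distinct promoter windows lay under broad regions and 820 under narrower ones, counting for each region the window nearest its replicate 2 summit. The windows cover 17273 coding genes, and regions at genes without a window, such as Extl3 and Tada1, are not counted. TTCG was present in 155 of the 206 (75.2%, exact 95% binomial interval 68.8 to 81.0). It was present in 71.0% of windows under narrower regions and in 49.4% of all coding windows. At least 3 copies were found in 28.2% (22.1 to 34.8) under broad regions, in 17.2% (14.7 to 19.96) under narrower regions and in 7.02% of all windows. Presence of a single copy therefore differed little between broad and narrower regions, whereas the intervals for 3 or more copies did not overlap. CCGGAAG went the other way, with 46.1% (39.2 to 53.2) under broad regions, 62.9% (59.5 to 66.2) under narrower regions and 11.7% of all windows. Among regions with no neighbour within 10 kb the difference was smaller and the intervals overlapped, with 54.5% (46.3 to 62.5) of 156 windows and 62.9% (59.4 to 66.4) of 766. Matches were counted on both strands by exact letters and are descriptions of sequence, not measured sites. A match to CCGGAAG cannot share bases with a match to TTCG on either strand.

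The broad set was not uniform in this respect. In the 142 windows under members of 300 to 599 bp, CCGGAAG was present in 59.9% (51.3 to 68.0), close to the narrower regions. In the 64 windows under members of 600 bp and over it was present in 15.6% (7.76 to 26.9), near the share of all windows. At least 3 TTCG were found in 24.6% (17.8 to 32.6) and 35.9% (24.3 to 48.9) of these windows. TTCGG was present in 44.4% (36.0 to 52.9) of the first and 64.1% (51.1 to 75.7) of the second, against 37.7% under narrower regions and 22.2% of all windows. The width of 600 bp was chosen after the values were seen. By finer width class, CCGGAAG was present in 58.7% of windows at 300 to 399 bp, 62.0% at 400 to 599 bp, 10.0% (1.23 to 31.7, 20 windows) at 600 to 999 bp and 18.2% (8.19 to 32.7, 44 windows) at 1000 bp and over. The intervals of the classes on either side of 600 bp did not overlap. That width was picked from the same values, so this is a description and no test of a step there.

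Base composition moved with these shares. The median CpG count was 29 in windows under members of 600 bp and over, 24 under the shorter members, 23 under narrower regions and 13 over all windows. Among windows with at least 20 CpG, CCGGAAG was present in 11.3% (4.27 to 23.0) under members of 600 bp and over, 63.8% (53.9 to 73.0) under shorter members, 63.1% under narrower regions and 20.3% of all such windows. The corresponding shares with 3 or more TTCG were 37.7%, 29.5%, 17.1% and 12.2%. The difference in CCGGAAG was as large in CpG-rich windows as in all of them.

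**Figure D1:**
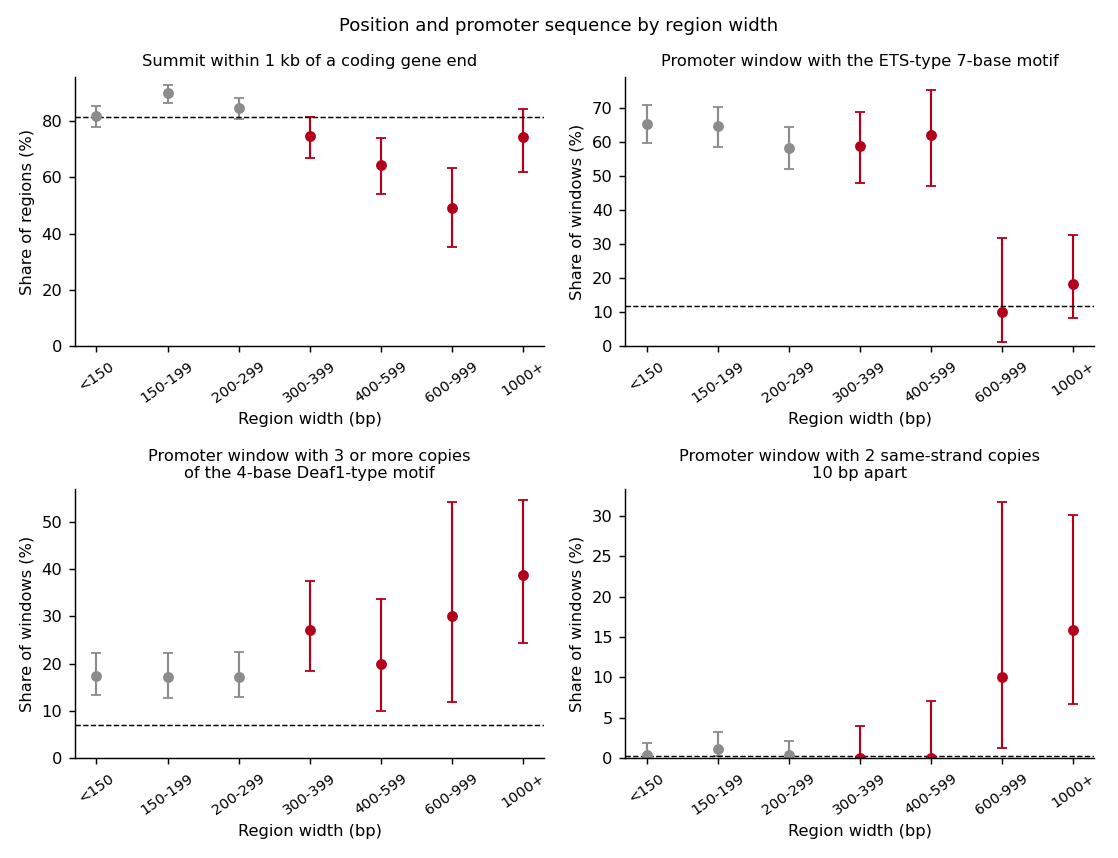
Share of regions or promoter windows (y axes, percent) by region width in bp (x axes), for position at a gene end, the 7-base ETS-type motif, 3 or more copies of the 4-base motif and a same-strand pair 10 bp apart. Points are shares with exact 95% binomial intervals (grey for narrower regions, red for broad ones), and dashed lines give the share over all regions or all coding windows. Between the classes on either side of 600 bp, a width chosen after the values were seen, the ETS-type motif falls from 62.0% to 10.0%. Pairs appear only in the classes of 600 bp and over among the broad ones.

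The distance between TTCG copies was also counted. It was looked at after the printed sequences had been seen. Windows printed for their pairs are among those counted, apart from the Deaf1 window, which was not the nearest to its region's summit. The counts are therefore a description. A pair of TTCG on the same strand with 6 bases between them (TTCG, any 6 bases, TTCG, searched on both strands, overlapping matches counted) was present in 9 of the 64 windows under members of 600 bp and over (14.1%, 6.64 to 25.02). It was present in 0 of the 142 windows under members of 300 to 599 bp, with an upper bound of 2.56%. Under narrower regions 5 of 820 windows had one (0.610%, 0.198 to 1.42), and over all coding windows 51 of 21044 did (0.242%). Among start-to-start distances from 4 to 40 bp, 10 bp was the most frequent in the 64 windows. The next were 20 and 31 bp, each in 6.25% (1.73 to 15.2), and these intervals overlapped that at 10 bp. Among regions with no neighbour within 10 kb, the pair was present in 3 of 156 windows under broad regions (1.92%, 0.398 to 5.52) and 5 of 766 under narrower ones (0.653%, 0.212 to 1.52). Over all coding windows 10 bp did not stand out in this way, since 7 bp was the most frequent distance (0.257%) and 21 bp was as frequent as 10 bp. In windows with at least 20 CpG, the pair was present in 16.98% (8.07 to 29.8) under members of 600 bp and over, 0.367% under narrower regions and 0.511% of all.

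**Figure D2:**
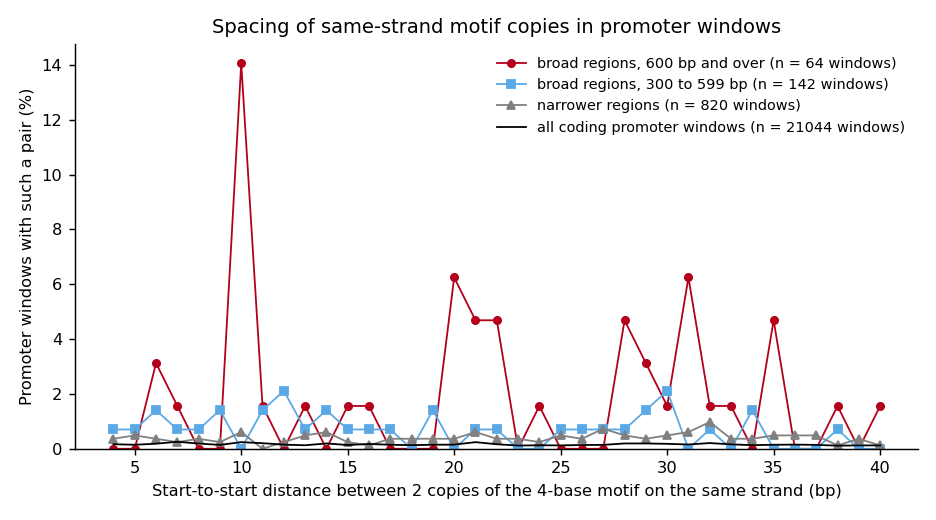
Share of promoter windows (y axis, percent) with 2 same-strand copies of the 4-base motif at each start-to-start distance from 4 to 40 bp (x axis). Red is members of 600 bp and over (64 windows), blue the shorter members (142), grey the narrower regions (820) and black all coding windows (21044). The red line reaches 14.1% at 10 bp and at most 6.25% elsewhere.

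Read from the sequence side, 51 coding windows of 45 genes held the pair. Broad regions overlapped 13 of them (25.5%, 14.3 to 39.6), narrower regions 6 (11.8%, 4.44 to 23.9), and 32 had no reproducible region. The spacing was picked after the printed windows had been seen, and those windows are among the 13. This count is therefore the same observation from the other side, not separate support. Some windows overlap each other, as at Eif4g3 and Eya4, and the intervals do not allow for that. A wider region can also overlap more windows. For comparison, broad regions overlapped 1.31% of all windows, 5.21% (4.14 to 6.47) of windows with 3 or more TTCG, and 4.52% (3.51 to 5.73) of those with 3 or more TTCG but no such pair. The 13 windows fell in 10 broad regions, whose widths ran from 891 to 4900 bp (median 2673 bp). Fold enrichment is the summit pileup plus 1, divided by its local background plus 1. In these 10 regions it ran from 9.27 to 36.4 in replicate 1 and from 14.2 to 43.1 in replicate 2. Most windows with a pair, such as those of Pkm (pyruvate kinase) and Ewsr1 (an RNA-binding protein), still had no reproducible region (62.7%, 48.1 to 75.9), against 93.8% of all windows.

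The 10 regions lay at genes of varied function. The region at Commd3, a subunit of an endosomal recycling complex, spanned 3926 bp with fold enrichments of 36.0 and 43.1 in replicates 1 and 2. The region over the Deaf1 internal start and Tmem80 spanned 4900 bp, with 34.6 and 41.4. Ube2m, the enzyme that conjugates NEDD8, had 36.4 and 36.9 over 3394 bp. Eef1b2, a translation elongation factor subunit, had 27.6 and 34.3 over 2844 bp. All 4 were above every narrower region in both libraries.

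Eif4g3, a translation initiation scaffold, had 17.7 and 28.5 over 4385 bp, and Mboat7, an acyltransferase for phosphatidylinositol, 22.1 and 24.3 over 2502 bp. The Mboat7 region was also above every narrower region in both libraries. Arhgap17 had 16.2 and 25.3 over 1086 bp, and Rpl28, a ribosomal protein gene, 20.8 and 20.7 over 891 bp. Ino80, the ATPase of a chromatin remodeller, had 9.27 and 18.5 over 1005 bp, and Eya4, a transcriptional coactivator and phosphatase, 11.0 and 14.2 over 933 bp. The last 2 were within the range of the narrower regions in both libraries.

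Enrichment of the broad set as a whole overlapped that of the narrower set for most members. The median fold enrichment of broad regions was 8.53 in replicate 1 (range 2.22 to 44.3) and 9.86 in replicate 2 (1.87 to 53.7). Narrower regions had medians of 7.29 (highest 20.7) and 8.09 (highest 21.9). Of the 358 members, 34 (9.50%) lay above every narrower region in both libraries, and 85 (23.7%) lay below the narrower median in both. The share of narrower regions below both medians is not reported here, so the 23.7% cannot be read as low or high. Lower quartiles in replicates 1 and 2 were 6.07 and 7.07 for broad regions and 5.75 and 6.37 for narrower ones. A broad region was thus not always a strong one. By width class the medians in replicates 1 and 2 were 7.14 and 8.90 at 300 to 399 bp (146 regions), 8.35 and 9.11 at 400 to 599 bp (93), 7.60 and 9.39 at 600 to 999 bp (53), and 21.4 and 27.2 at 1000 bp and over (66). The higher enrichment was carried by the last class.

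The same order held for fragments. The number of fragments stacked at the summit, recovered from the deposited fold and p, had a median of 29 in replicate 1 and 38.5 in replicate 2 for broad regions, against 23 and 31 for narrower ones. At 1000 bp and over the medians were 75.5 and 100.5. The expected background under these summits was similar, with medians of 1.98 and 2.47 fragments for broad regions and 1.92 and 2.72 for narrower ones. Across the 358 regions, the Spearman correlation between width and mean fold was 0.44, and across the 1153 narrower regions it was 0.13. Both measures come from the same libraries and depth, so the values are descriptions.

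**Figure D3:**
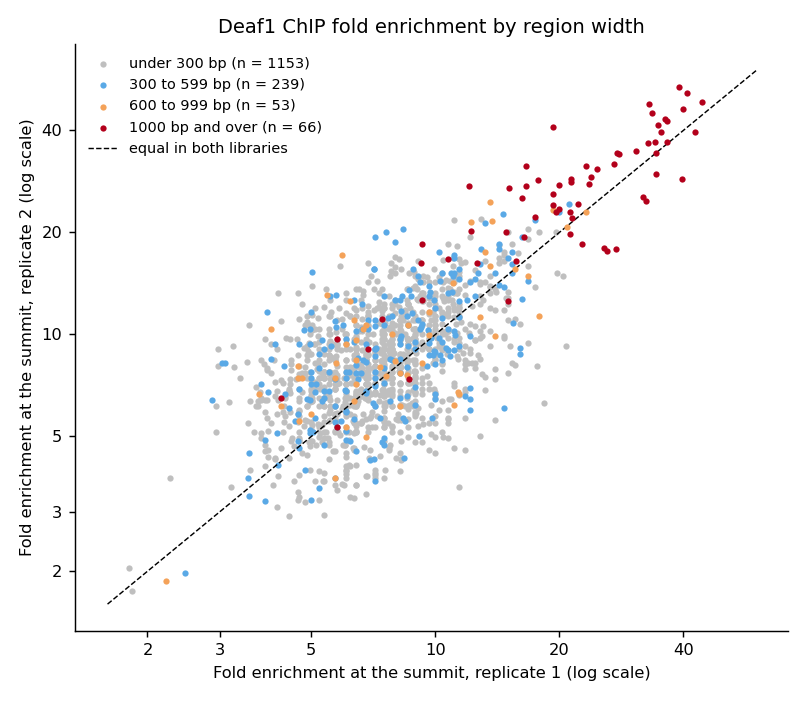
Fold enrichment at the summit in replicate 1 (x axis) and replicate 2 (y axis), both on log scales, with 1 point per region and colour by width. Regions of 1000 bp and over (red) have medians of 21.4 and 27.2 and reach 44.3 and 53.7, while most regions of 300 to 999 bp (blue and orange) lie among the narrower ones (grey) and reach at most 23.2 and 24.6.

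The rank correlation between the libraries was higher over broad regions than over narrower ones. The Spearman correlation between the folds of replicates 1 and 2 was 0.74 over broad and 0.48 over narrower regions. The folds of broad regions were also more spread, with replicate 1 quartiles of 6.07 and 12.6 against 5.75 and 9.04. A narrower spread can by itself lower a correlation, and its part here was not tested. Fold enrichment was higher in replicate 2 at 246 members (68.7%), with a median ratio of 1.19. The median ratio was 1.12 over narrower regions and 1.13 over all regions, so a higher replicate 2 was not particular to the broad set. The summits of the strongest peaks lay a median of 16 bp apart in broad regions and 11 bp in narrower ones, and within 50 bp of each other in 76.3% (71.5 to 80.6) and 95.4% (94.0 to 96.5). In a wide region the libraries can place their highest point at different positions, up to 1164 bp apart.

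The width of a member was set mainly by replicate 2. A replicate 2 peak of at least 300 bp was present in 326 members (91.1%), a replicate 1 peak of that width in 150 (41.9%), both in 139, and neither in 21. Replicate 1 peaks covered a median of 65.0% of a member and replicate 2 peaks 100%. In replicate 1, 275 members consisted of 1 peak, 52 of 2, 17 of 3, and the rest of 4 to 7. In replicate 2, 336 members consisted of 1 peak, 21 of 2 and 1 of 3. At 1000 bp and over, 46 of 66 regions (69.7%) were several peaks in replicate 1. Replicate 2 had more peaks in all, 3126 against 1860, and 430 against 199 of at least 300 bp.

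The 10 members with the largest mean fold enrichment were the regions at Extl3, Tada1, Ski, Zc3h4, Acin1, Pik3r2, Mark2, Commd3, Creb1 and Tmem80. The region at Pik3r2, a regulatory subunit of phosphatidylinositol 3-kinase, had 33.0 and 47.9, a mean of 40.5 ± 10.5 (SD, n = 2). It spanned chr8:70774645-70778271, reaching 2067 bp past the start. Mark2, a kinase of cell polarity, had 36.4 and 42.7, a mean of 39.6 ± 4.5 (SD, n = 2), over chr19:7338255-7343484. Creb1, the cAMP-responsive transcription factor, had 33.6 and 45.1, a mean of 39.3 ± 8.2 (SD, n = 2), over chr1:64529636-64533312. Commd3 had a mean of 39.6 ± 5.0 (SD, n = 2). These means differ by less than their SDs, so no order among these 4 can be read.

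The Creb1 region lay mostly upstream of its start, reaching only 508 bp downstream. The Mark2 region reached 3605 bp downstream. The counts behind these values were of order 100 fragments. At Commd3 they were 100 in replicate 1 (exact Poisson 95% interval 81.4 to 121.6) and 132 in replicate 2 (110.4 to 156.5). At Creb1 they were 121 (100.4 to 144.6) and 145 (122.4 to 170.6).

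The 5 widest members were not the 5 strongest. The widest, at chr11:104547117-104553737, spanned 6621 bp over the starts of Cdc27, a subunit of the anaphase-promoting complex, and Myl4, a myosin light chain. Its fold enrichment was 32.5 and 24.7. The others were the regions at Acin1 (5808 bp), Mark2 (5230 bp), Zc3h4 (5222 bp) and Gsk3b (5027 bp). Gsk3b encodes a kinase of glycogen and Wnt signalling, and its region had 17.4 and 22.2, reaching 3162 bp past the start. In replicate 2 each of these 5 regions was a single peak, whereas replicate 1 split them into 4 to 7 peaks.

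Replicate 2 split 22 members into several peaks. A chromosome 17 region described below had 3 peaks and the other 21 had 2, and of these the regions at Ndufs1 and Eef1b2 and at Crebbp had the largest mean fold. The first, beside a boundary of Ndufs1 (a subunit of respiratory complex I) and over the start of Eef1b2, covered chr1:63175353-63178196. The Crebbp region, at chr16:4213704-4216765, belongs to the gene of the acetyltransferase CBP. Its folds were 31.9 and 25.4, with 115 and 147 fragments.

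At the weak end, the 3 lowest means belonged to 2 regions on chromosome 17 and 1 at Ercc4. The chromosome 17 regions, chr17:39843972-39844867 and chr17:39845029-39845616, had folds of 2.22 and 1.87 and of 2.46 and 1.97. Their summits held 81 to 86 fragments, but the background expected there was 33.5 to 45.5 fragments. The nearest annotated gene was Rn18s-rs5, a pseudogene related to 18S ribosomal RNA, 1487 and 738 bp away. The other 356 members had a background of at most 8.78 fragments in replicate 1 and 8.70 in replicate 2, and folds of at least 2.87 and 3.23. The Ercc4 region, chr16:13111524-13111882, had 3.52 and 3.35.

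The libraries disagreed most at 6 named members. Replicate 2 was highest relative to replicate 1 at Pwp2 and Trappc10 (5.01 and 15.3), at a region 6251 bp from an end of Ski (3.89 and 11.7) and at Ubl3 (5.93 and 17.2). Replicate 1 was highest relative to replicate 2 at Fau and Mrpl49 (14.6 and 6.05), at Mul1 (12.1 and 5.998) and near Kat5 (8.37 and 4.33). In all 6 the library with the lower fold had the higher background. The background is part of the fold and the 6 were picked by the ratio of folds, so this is partly fixed. At Pwp2 the background was 8.78 fragments in replicate 1 and 3.06 in replicate 2, and at Fau it was 1.80 and 6.77. The pileups moved less, with 48 and 61 fragments at Pwp2, 40 and 46 at Fau, and 31 and 52 at Ubl3. The part of the background in these differences was not tested.

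The threshold itself divided regions of like strength. The members exactly 300 bp wide lay at Fubp3 (5.98 and 10.7), near Pbdc1 (7.14 and 11.0), near Tmem80 (7.50 and 4.93) and near Tle5 (5.71 and 5.50). The 3 widest regions left out, each 1 bp narrower, were at Myg1 and Pfdn5 (9.97 and 10.6), Ttc33 (4.65 and 8.71) and Utp11 (6.87 and 11.7).

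Broad regions lay at gene ends less often than narrower ones. A coding gene began or ended within 1 kb of the summit at 244 of 358 members (68.2%, 63.1 to 73.0), against 985 of 1153 narrower regions (85.4%, 83.3 to 87.4) and 81.3% of all regions. Within 5 kb the shares were 86.6% and 94.1%. Members of 600 to 999 bp had the lowest share, 49.1% (35.1 to 63.2), and those of 1000 bp and over 74.2% (62.0 to 84.2). Of the 114 members away from an end, 85 lay inside a coding gene and 29 outside. Ends here are the outer limits of each gene record, so internal starts are not counted. At least 25 of the 114 contained an annotated coding start within 1 kb of the summit, as did at least 72 of the 168 narrower regions away from an end. Being away from an end therefore does not mean being away from a promoter.

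Many of the members away from gene ends sat beside another region. Another reproducible region lay within 10 kb of 141 members (39.4%, 34.3 to 44.7), against 10.8% (9.11 to 12.8) of narrower regions and 17.6% of all regions. Of the 114 members away from an end, 73 (64.0%, 54.5 to 72.8) had such a neighbour, and for 54 of them (47.4%) a stronger one. Among regions with no neighbour within 10 kb, the share at gene ends was 81.1% (75.3 to 86.1) of 217 broad and 87.5% (85.4 to 89.5) of 1028 narrower regions, and these intervals overlapped.

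The 358 members belonged to 283 loci. In 66 of these the member was joined by at least 1 more region within 10 kb, and in 57 of the 66 the strongest region was a broad one. This count is a description, because only loci that hold a broad region were taken. Where every region of a locus was broad, as at Extl3 and Ercc4, the outcome was fixed. At 20 loci there were at least 3 broad regions. At Extl3, an enzyme of heparan sulfate synthesis, all 7 regions within 21500 bp were broad. The strongest, with 44.3 and 48.6, was flanked by 6 regions of 4.21 to 7.14 in replicate 1 and 6.37 to 12.6 in replicate 2. At Ski, a repressor of TGF-beta signalling, 6 of 7 regions within 19606 bp were broad, and the others had 3.89 to 6.78 and 5.83 to 11.7 beside 40.7 and 51.5.

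At Ercc4, a nuclease subunit of DNA repair, all 5 regions within 5159 bp were broad. The strongest had 34.3 and 29.7, and the others 3.52 to 5.50 and 3.35 to 7.45. At Pex2, a ubiquitin ligase of the peroxisome, 4 of 5 regions within 5211 bp were broad, with 34.1 and 36.9 at the strongest and 2.87 to 5.02 and 5.13 to 6.39 at the others. The strongest region stands highest by choice, so only the size of the gap is described. At these 4 loci the flanking regions reached at most 12.6 in either library, beside at least 29.7 at the strongest. Further loci with 4 broad regions were those of C1qtnf6, Cdc27, Mta2 (a subunit of the NuRD complex) and Eif4g3. The gap was smaller at Mta2, where neighbours reached 13.2 and 21.4 beside 27.1 and 31.7. At Eif4g3 they reached 11.1 and 17.2 beside 17.7 and 28.5, and at C1qtnf6 8.63 and 7.40 beside 16.4 and 19.4. At Cdc27 they reached 7.33 and 5.66 beside 32.5 and 24.7.

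**Figure D4:**
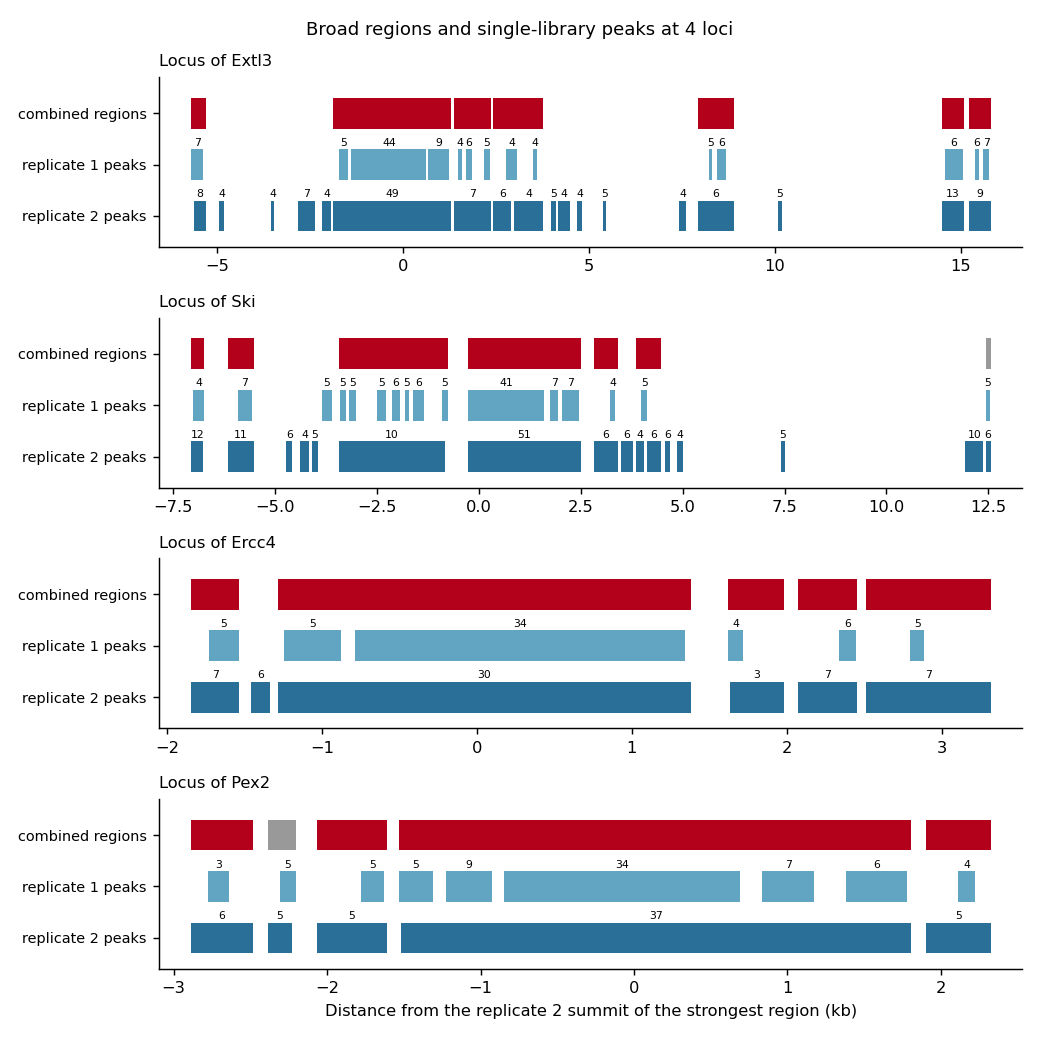
Combined regions (red when at least 300 bp, grey when narrower) and peaks of each library (blue) at the loci of Extl3, Ski, Ercc4 and Pex2, by distance in kb from the strongest replicate 2 summit (x axis). Numbers are fold enrichments of single peaks, rounded to whole numbers. One summit per locus reaches 29.7 or more in both libraries, and flanking regions reach at most 12.6.

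Gene starts were placed with their strand, from a promoter table with windows for 17273 of the 21627 coding genes. Regions whose genes have no entry there are absent from the start results. Among them are the strongest regions at Extl3 and Tada1 and all regions on chromosome 18. Of 222 members with the summit within 1 kb of a start, 60.8% (54.1 to 67.3) had it within 100 bp, 25.7% further upstream and 13.5% further downstream. For 881 narrower regions these shares were 81.5% (78.8 to 84.0), 12.1% and 6.36%. Reaching both sides of a start is fixed for regions that contain one, so only the lengths are described. In 151 such members with a start on 1 strand, the region ran a median of 285 bp upstream and 205 bp downstream, and the upstream side was the longer in 56.3% (48.0 to 64.3). In 564 narrower regions the medians were 106 and 56 bp, with the upstream side longer in 81.2% (77.7 to 84.3). At 1000 bp and over the medians were 902 bp upstream and 1078 bp downstream (37 regions). Starts on both strands within 1 kb were about as common in broad (19.4%) as in narrower regions (18.2%).

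**Figure D5:**
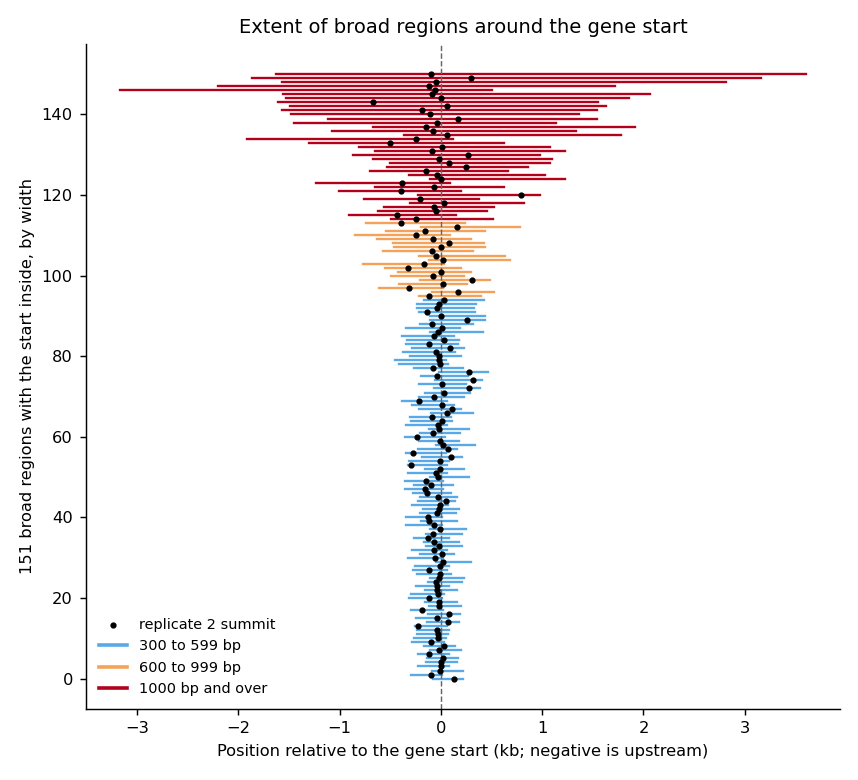
Extent of 151 broad regions around the gene start they contain, sorted by width on the y axis, with position in kb relative to the start on the x axis (negative is upstream). Lines are regions coloured by width and black dots are replicate 2 summits. Only regions with the summit within 1 kb of the start are shown, so nearness of summits (median 34 bp upstream) is partly fixed. Regions of 1000 bp and over run about as far downstream as upstream.

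The widest members more than 5 kb from any gene end were the strongest Extl3 region, a 1934-bp region on chromosome 18 (14.9 and 20.1) and a 1662-bp region inside Tmprss6, a serine protease gene, at chr15:78447622-78449283 (9.23 and 16.3).

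The share of broad regions varied between chromosomes. It was highest on X (8 of 17), 19 (28 of 68, 41.2%) and 15 (41 of 106, 38.7%, 29.4 to 48.6), and lowest on 9 (5 of 55, 9.09%, 3.02 to 19.95). Chromosome 15 also had the highest median background of all chromosomes, 3.04 fragments in replicate 1 and 3.87 in replicate 2. Chromosomes 19 and 9 were both at the lowest, 1.80 and 2.09. The part of the background in the chromosome shares was not tested.

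Of 21627 protein-coding genes, 302 (1.4%) had a broad region within 1 kb of the start or end, and 1204 genes (5.57%) had narrower regions only. The gene lists below were chosen with earlier results of these data known, and their shares are given beside this background without a test. Cytosolic ribosomal protein genes had broad regions at 6 of 76 and narrower ones alone at 25. The 6 were Rpl28, Rpl37 (10.4 and 11.2), Rps9 (6.67 and 8.42), Rps18, which shares its region with Vps52 (8.80 and 15.5), Rps19 (9.64 and 9.94) and Fau. Rpl28 was the strongest of them and the widest.

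Translation initiation factor genes had broad regions at 5 of 43 and narrower ones at 12. These were Eif3l (15.4 and 10.8), Eif4e2 (10.3 and 14.4), Eif3d (5.70 and 7.38), Eif2a, which shares its region with Serp1 (3.08 and 8.22), and Eif4g3, where a weaker neighbour of the strongest region (6.85 and 9.07) was the one at the annotated end. Splicing factor genes had broad regions at 5 of 65 and narrower ones at 20. U2af2, which recognises the 3′ splice site, had 34.3 in both libraries over 2983 bp, and Prpf19, a core spliceosome ubiquitin ligase, 27.5 and 17.8 over 1275 bp. Dhx38 (11.1 and 10.3), Prpf38a (8.92 and 6.98) and Acin1 were the others.

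Chromatin modifier genes had broad regions at 5 of 67, more than the 4 with narrower ones. Besides Crebbp and Ino80 these were Kdm5a, a histone demethylase (7.97 and 18.8), Smarcc2, a BAF complex subunit (10.9 and 15.2), and Chd8, a remodeller whose region is shared with Supt16 (11.9 and 12.6). Genes of the SAGA and ATAC coactivators had 2 of 26, Tada1 and Supt7l (4.65 and 6.92), with 2 more narrower. Of 7 genes for Deaf1 and its partners, Gsk3b alone had a broad region within 1 kb of an end of the gene. The broad region over the internal start of Deaf1 lies inside that gene and is not counted here.

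Autophagy genes, the theme in the title of the series, had broad regions at 2 of 52 and narrower ones alone at 10. The 2 were at Vmp1, which acts in autophagosome formation (9.90 and 8.91), and Gabarap, which is closer to Phf23 (3.85 and 3.23, with 13 and 21 fragments). Neither reached 600 bp. Proteasome genes had 0 of 33 broad and 9 narrower, and myogenic and FOXO regulators 0 of 15 of either kind. Counts of 0 of 33 and 0 of 15 allow shares (exact 95% upper bounds) of up to 10.6% and 21.8%, which include the background of 1.4%.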

How the data were processed

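The authors deposited a peak list for each Deaf1 ChIP library and 1 combined list. Per the submitters' processing notes, FastQC 0.11.8, BWA 0.7.17-r1198 and MACS2 2.1.2 were used with build mm10; filters and duplicate handling are not given in the sources used here. The deposited fold enrichment is a ratio, and the deposited p and q are −log10 values, each at the summit. The deposited score of the combined list was read but not used, and 6 further columns of the combined list with single-library values were not used. The position of the summit was taken from the authors' offset.

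Each region took the values of its strongest overlapping peak (largest −log10 p, overlap of at least 1 bp) in each library. Summit pileup and background were recovered from fold = (pileup + 1)/(background + 1) and the Poisson p. This gave a whole number for 100% of peaks, within 0.001 in −log10 p, scaled up for large values. The method was tested on simulated data. The lowest background, 1.80 and 2.09 fragments, reflects the depth of the ChIP libraries. Intervals are exact (Clopper-Pearson for shares, Poisson for pileups) at 95% and cover counting error only. Regions are not replicates, so no p-value is given.

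Gene ends came from the RefSeq gene table and starts and promoter sequences from the RefSeq promoter table, both GRCm38.p6, matched by gene ID and position. Coordinates are 1-based. The calculations used Python 3.11.15, pandas 2.3.3, numpy 2.4.6 and scipy 1.17.1.

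Members and lists were chosen with earlier results of these data known. Regions named are the 10 with the largest mean fold, the 5 widest, the 3 with most replicate 2 peaks, the 3 with the smallest mean fold, the 3 with the largest and the 3 with the smallest ratio between libraries, the 3 widest over 5 kb from a gene end, those at the width threshold, and list genes with a broad region. Regions with TTCG pairs were named after their values were seen. The inputs were not analysed here on their own.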

Additional observations from a re-analysis of the deposited data

How the results depend on the processing

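The alternatives limited to isolated regions, to 600 bp in the promoter comparison, to the TTCG pair, without chromosome 15 or without the 2 regions of high background were chosen after seeing the data. No result changed direction under any alternative run. Cutoffs of 200, 500 and 1000 bp gave 726, 158 and 66 members in place of 358, ratios of broad to narrower median fold of 1.14, 1.61 and 3.11 in place of 1.19, and differences in the share at gene ends of −9.15, −23.0 and −7.42 percentage points in place of −17.3. Leaving out each replicate in turn gave 179 to 334 members, ratios of 1.24 to 1.61 and differences of −19.5 to −13.0 points; without replicate 2 there were 179 members. The ratio was 1.23 with −log10 q of at least 5, 1.12 for regions of 1 peak per library and 1.15 for the mean over all peaks. The difference at gene ends was −7.51 points with a window of 5 kb. With isolated regions only there were 217 members, with a ratio of 1.23, a difference of −6.44 points at gene ends and of −8.44 points in CCGGAAG, where all regions gave −16.8. At 600 bp the difference was −47.0 points in CCGGAAG and 13.5 points in the TTCG pair, where 300 bp gave 3.76 and isolated regions only gave 1.27. The cause of these shifts was not tested beyond the smaller or larger sets each alternative makes. No paired analysis was possible because the only libraries with values used here are the ChIP pair, which form a single group. With medians of 29 and 38.5 fragments at a summit, counting error limits comparisons of single regions.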

Other observations

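Outside the broad set as defined here, 23 more rows of the combined list were at least 300 bp wide. Of these, 21 lay in the chromosome 10 block and 2 on sequence other than chromosomes 1 to 19 and X, so that 381 of the 1550 rows reached that width in all.

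Several promoter motifs searched in the same windows differed little between broad and narrower regions. GGGCGG, the core of Sp1-type sites, was present in 70.4% (63.6 to 76.5) of windows under broad regions, 65.1% (61.7 to 68.4) under narrower regions and 46.7% of all windows. The E-box CACGTG was present in 11.2%, 8.54% and 7.91%, and the cAMP response element TGACGTCA in 4.85%, 5.49% and 2.26%. The TATA-type core TATAAA was present in 2.91% (1.08 to 6.23), 3.29% (2.18 to 4.75) and 12.7%, and TTCGGG in 16.99%, 16.2% and 8.30%.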
